A study of Homo sapiens with 12 samples.

Results

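The genes described here encode the mitochondrial protein import machinery, 36 genes in all, and were chosen by their symbols among the 60708 genes of the count tables. They comprise the subunits of the TOM and SAM complexes of the outer membrane, the small chaperones of the intermembrane space, the TIM22 and TIM23 translocases of the inner membrane, the import motor, the disulfide relay, and the peptidases that process imported proteins. RNA was sequenced from HCT116 cells, a human colorectal carcinoma line of epithelial origin, with a WT genotype in every group. The cells were treated for 24 h with oligomycin A (OA), which blocks the mitochondrial ATP synthase, or with tunicamycin (TN), which blocks N-linked glycosylation in the endoplasmic reticulum. For each drug, 3 biological replicates were set against 3 separate replicates given DMSO, which makes 12 libraries. The labels give 5 µg/mL for both drugs, whereas the methods of the study give 10 µg/mL for OA. All groups are the same cell line grown in the same medium, and DMSO was the vehicle.

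Most mitochondrial proteins are encoded in the nucleus, made in the cytosol, and carried across the mitochondrial membranes. The TOM complex is the common entry gate, and from there precursors are sorted to the SAM complex (barrel proteins), the small TIM chaperones and TIM22 (carrier proteins), or TIM23 and its motor (matrix proteins with a presequence). Import through TIM23 needs the membrane potential of the inner membrane, and the presequence is removed in the matrix by the processing peptidases.

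Library totals ranged from 9884124 to 24983573 counts and were lower in each treated library than in each DMSO library of the same experiment. The RNA of the signal recognition particle, RN7SL1, took 6.02% to 8.11% of the counts in the DMSO libraries and 8.40% to 17.9% in the treated libraries, with the highest shares in OA replicate 2 and TN replicate 1. In several libraries the difference of a gene from its group mean was related to its GC content (Spearman correlation across genes of -0.67 to 0.70 by library). The 36 import genes together took 0.268% to 0.339% of the counts in the DMSO libraries and 0.186% to 0.228% in the treated ones. This share was lowest in OA replicate 2 and TN replicate 1, where RN7SL1 was highest. Of the 5 epithelial markers, all were measured in both experiments, with at least 560 counts in every library. CDH1 was the epithelial marker that passed, higher for both OA (log2 fold change 1.81, adjusted p = 0.0271) and TN (1.69, adjusted p = 0.00677). With the replicate block, KRT18 rose for TN as well (log2 fold change 0.59, adjusted p = 0.0225). PTPRC, CD3E, CD14, COL1A2, and PECAM1, which mark blood, stromal, and endothelial cells, had 0 to 8 counts. COL1A1, a stromal marker, had 35, 29, and 43 counts with DMSO and 70, 124, and 33 with OA, and all OA libraries were higher in CPM (log2 fold change 2.02, adjusted p = 0.0723 by edgeR and 0.00478 with DESeq2). For TN it had 15 to 39 counts, against 23 to 64 with DMSO (log2 fold change 0.22, adjusted p = 0.849). The part of these markers in the results was not tested. The stress genes ATF4, DDIT3, ASNS, TRIB3, and HSPA5 rose with both stressors by edgeR's quasi-likelihood test, with log2 fold changes of 1.38 to 5.23. ATF5, of the same list, did not pass (log2 fold change 0.93, adjusted p = 0.184 for OA and 0.98, adjusted p = 0.287 for TN).

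As shared features of the import genes that the expression values did not use, the promoter windows of RefSeq on GRCh38.p14, which run from 250 bases before to 50 bases after a gene's start, were searched on both strands for 5 motifs. A window was held for 33 of the 36 genes, 36 windows in all, and a gene was counted once if any of its windows matched. The ETS core CCGGAAG was found for 15 of the 33 (45.5%), against 12.2% of all 27305 genes with a window and 22.3% of the 10566 of them tested in either experiment. The YY1 motif AAGATGGCG was found for 3 of the 33 (9.09%), against 2.14% of all genes and 4.7% of the tested ones. The NRF1 core CGCATGCG, a palindrome, was found for 3 genes (9.09%, against 2.46% of all and 4.54% of the tested ones). For 1 of them, CHCHD4, it was flanked by G and C, the longer form that was searched first (1.52% of all genes). The C/EBP-ATF element TGATGCAA was found for 2 genes (6.06%, against 1.08% of all genes). The ER stress response element, CCAAT and CCACG with 9 bases between them, was found for none of the 33 genes and for 0.0916% of all genes. Stretches of 30 bases are shown for a selection of genes, 1 or more for each motif found, most of them genes that passed for TN below in the fit with a term for the replicate number, and chosen with these results known, on the strand of the gene, with the match in capitals (CTTCCGG and TTGCATCA are the antisense forms). They show matches to letters and not bound sites. Of the 12 genes with a window that passed for TN with the replicate term, 4 had the ETS core, against 11 of the other 21, which include the untested TOMM6. The YY1 motif was found for 3 and 0, the NRF1 core for 1 and 2, and the C/EBP-ATF element for 0 and 2 of these groups.
MIPEP (chr13:23889426-23889455, minus strand): cgcgcccagacCCGGAAGcggggccgtcac
TIMM13 (chr19:2427578-2427607, minus strand): cgggcggcccgCTTCCGGcgcagttagtta
TIMM23 (chr10:45972430-45972459, plus strand): ggcgcttccagCTTCCGGggcgcacattgc
TOMM22 (chr22:38681947-38681976, plus strand): cctcctttccgCTTCCGGtgtcccctacag
GRPEL2 (chr5:149345341-149345370, plus strand): cacactgagagCCGGAAGtgttgccttagc
GRPEL2 (chr5:149345401-149345430, plus strand): ccatcgggcaaCCGGAAGcatagcgttcct
GRPEL2 (chr5:149345422-149345451, plus strand): agcgttcctgtCCGGAAGtcctgagaggga
PMPCA (chr9:136410656-136410685, plus strand): gcggagacgcAAGATGGCGgctgtggtgct
TIMM50 (chr19:39480841-39480870, plus strand): gcgtcagcgcAAGATGGCGgcctcggcagc
TOMM40L (chr1:161225997-161226026, plus strand): gccagattcaAAGATGGCGcttacggccac
CHCHD4 (chr3:14125003-14125032, minus strand): cagtgtttctgCGCATGCGcgcggcgagac
TIMM22 (chr17:997036-997065, plus strand): cgaatctgccgTTGCATCAcagtggctagt

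In OA-treated cells, 1 import gene passed edgeR's quasi-likelihood test at an adjusted p under 0.05, which is what passed means below unless another fit is named, and most of the others had a log2 fold change below 0. Of the 36 genes, 35 were tested, because TOMM6 had no counts in any of the 12 libraries. TIMM21, a TIM23 subunit, fell to 0.421 times its DMSO level, while no import gene rose by this test. This 1 of 35 (2.86%) at an adjusted p under 0.05 stands beside 4.48% of all 14681 genes tested, 1.72% lower and 2.76% higher, and is too small a count to set the import genes apart. The log2 fold change was below 0 for 25 of the 35 (71.4%, against 51.2% of all genes), and its median was -0.24, against -0.02 over all genes. Without a library the median was -0.15 (without DMSO replicate 2) to -0.34 (without OA replicate 2). The groups did not overlap in 11 genes (31.4%, against 31.8% of all genes). In 10 of these genes (28.6%) the OA libraries all lay below the DMSO libraries, against 15.5% of all genes. In 1 gene, TIMM17B, they all lay above (2.86%, against 16.3%). An unadjusted p under 0.05 was found for 8 of the 35 (22.9%, against 23.3%). DESeq2 in place of edgeR called 5 of the 35 (14.3%, against 13.1%), of which TIMM21, TOMM40, PMPCA, and MIPEP fell and TIMM17B rose. In these bulk libraries, less RNA per cell cannot be told apart from fewer cells that express a gene.

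In TN-treated cells, 2 of the 35 tested import genes fell and none rose without a term for the replicate number. They were MIPEP, which removes an octapeptide from a subset of matrix precursors, and TIMM8A, a small chaperone of the intermembrane space. This is 5.71% of the import genes, against 6.99% of all 14432 genes tested, 3.34% lower and 3.65% higher. The log2 fold change was below 0 for 25 of 35 (71.4%, against 51.9%), with a median of -0.28, against -0.03 over all genes. Without a library the median was -0.18 (without DMSO replicate 1) to -0.48 (without TN replicate 1). The groups did not overlap in 11 genes (31.4%, against 32.6%). The TN libraries all lay below the DMSO libraries in 10 genes (28.6%, against 16.8%) and all above in 1, PAM16 (2.86%, against 15.9%). An unadjusted p under 0.05 was found for 10 of the 35 (28.6%, against 24.3%), and DESeq2 called 4 (11.4%, against 15.0%). The same-numbered TN and DMSO libraries deviated together, so the fit was also made with the replicate number as a block. With this block, 13 of the 35 (37.1%) passed, against 27.1% of all genes, of which 12 fell (34.3%, against 15.3%) and 1 rose (2.86%, against 11.8%). The genes that fell were TOMM22, TOMM40, TOMM40L, TIMM8A, TIMM13, TIMM21, TIMM23, TIMM50, GRPEL1, CHCHD4, PMPCA, and MIPEP, and the gene that rose was TIMM17B. The same block for OA gave 12 of 35 (34.3%, against 26.7% of all genes). Lower for OA were TOMM22, TOMM40, TOMM40L, TOMM70, SAMM50, TIMM8A, TIMM13, TIMM17A, TIMM21, PMPCA, and MIPEP, and TIMM17B was higher. Gene by gene, the block alone is given below for TN only, which does not show a difference between the stressors. Without the block but with TN replicate 1 left out, 9 of 35 passed, all lower, against 15.8% of all genes, 8.54% lower and 7.26% higher. The 9 were TOMM40, TOMM40L, TIMM8A, TIMM13, TIMM21, TIMM23, TIMM50, PMPCA, and MIPEP. With any other library left out, 0 of 35 passed. Over all genes, 151 of 14888 (without DMSO replicate 3) to 473 of 14947 (without DMSO replicate 1) then passed, so this 0 does not set the import genes apart. Compared pair by pair, 18 genes were lower in every pair and 5 were higher in every pair, against 33.1% and 27.1% of all genes.

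**Figure D1:**
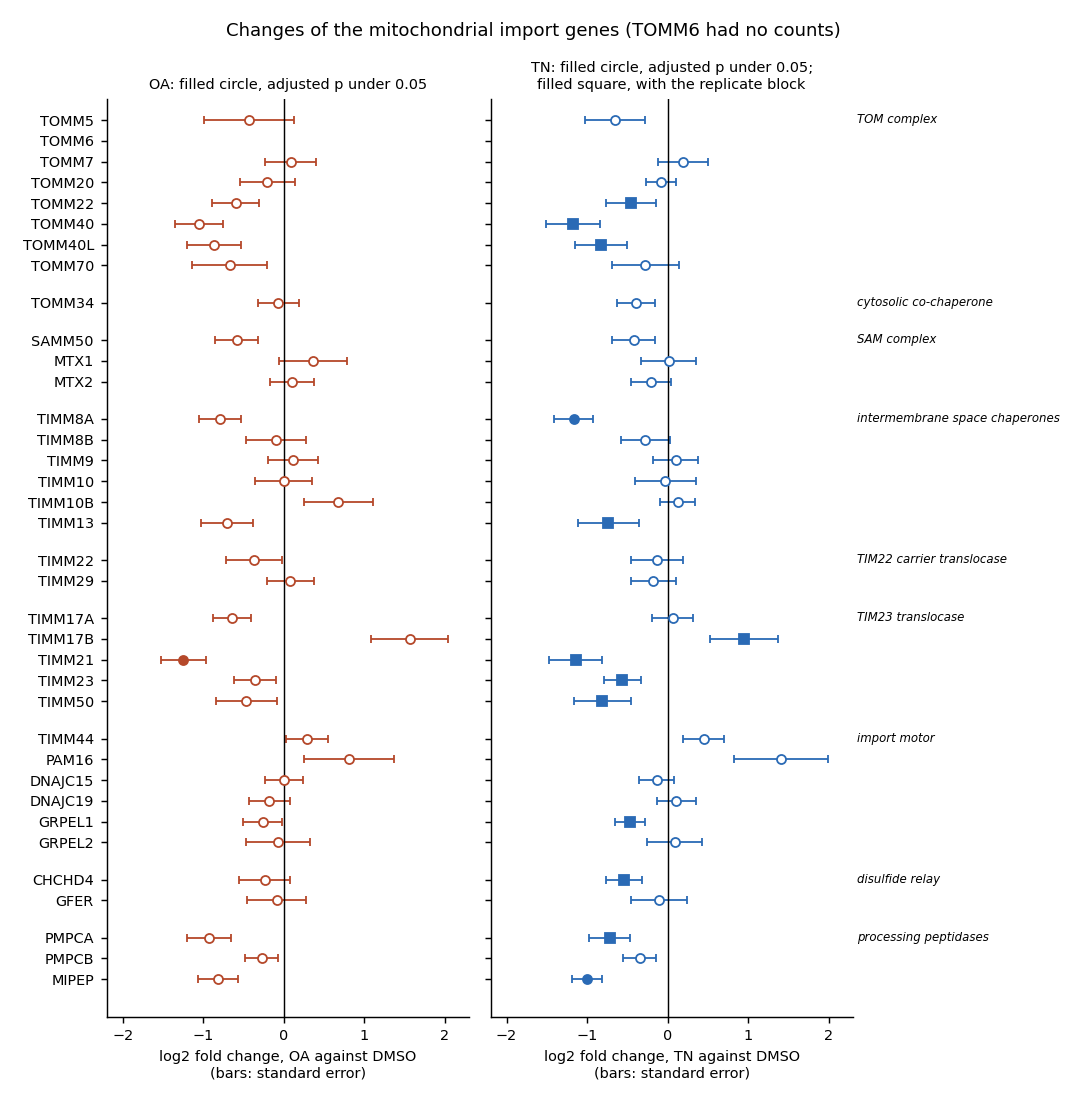
The log2 fold change of each of the 35 tested import genes is plotted with its standard error, OA on the left and TN on the right, grouped by complex. Filled circles mark an adjusted p under 0.05 without the replicate block. Filled squares, in the TN panel only, mark genes that passed only with the block. Genes that passed for OA with the block are not marked, so the filled symbols of the panels cannot be compared. In both panels 25 genes lie below 0, TIMM17B lies to the right, and TIMM21, TOMM40, and MIPEP are among the genes farthest to the left.

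Single libraries moved the level of the group. Against the mean of the DMSO libraries of its experiment, the median import gene stood at -0.44, -0.04, and -0.27 on the log2 scale in OA replicates 1, 2, and 3 and at -0.18, 0.27, and -0.11 in the DMSO replicates. In the TN experiment it stood at -0.18, -0.55, and -0.36 in the TN replicates and at 0.26, -0.16, and -0.08 in the DMSO replicates. The groups overlapped in the OA experiment, and in the TN experiment TN replicate 1 lay just below DMSO replicate 2. The replicates with the highest medians were DMSO replicate 2 and OA replicate 2, and DMSO replicate 1 and TN replicate 1, whose deviations rose with GC content. The import genes have a median GC content of 46.4%, against 48.2% and 48.0% over the genes tested for OA and TN. With an offset for GC content, the median log2 fold change was -0.22 for OA and -0.20 for TN. For OA 7 of 35 (20%) passed, 6 lower and 1 higher, against 16.1% of all genes (1112 lower and 1249 higher of 14681). For TN 8 of 35 (22.9%) passed, all lower, against 21.7% of all genes (1520 lower and 1617 higher of 14432). With the replicate block as well, the TN median was -0.21, and 15 of 35 (42.9%) passed, 13 lower and 2 higher. Over all genes 37.2% then passed, 2737 lower and 2630 higher of 14432.

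**Figure D2:**
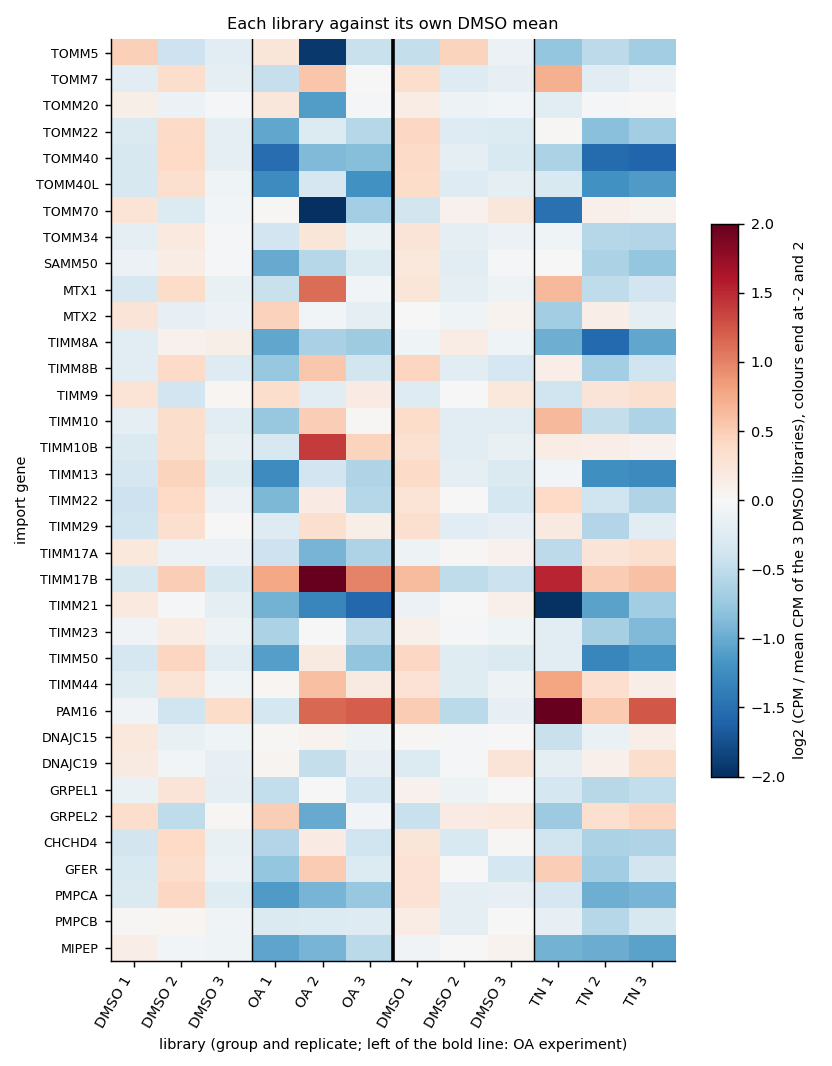
Each cell shows the level of an import gene (rows) in a library (columns) as the log2 ratio to the mean of the 3 DMSO libraries of its own experiment, with blue for lower and red for higher. MIPEP, TIMM21, TIMM8A, and TOMM40 are blue in all 6 treated libraries, and TIMM17B is red in all 6.

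The TOM complex holds the receptors TOMM20, TOMM22, and TOMM70, the channel TOMM40, and the small subunits TOMM5, TOMM6, and TOMM7. Levels are given as CPM, which are read counts scaled to a common library size with TMM factors. TOMM40 (ENSG00000130204.13, hg38 chr19:44890569-44903689) forms the pore through which precursors cross the outer membrane. Its level was 190.0, 312, and 207 CPM with DMSO and 82.3, 129, and 131 CPM with OA. In the TN experiment it was 246, 168, and 153 CPM with DMSO and 122, 65.3, and 63.2 CPM with TN. All treated libraries lay below all DMSO libraries in both experiments. The log2 fold change was -1.05 (SE 0.30, adjusted p = 0.0831) for OA, which did not pass. TOMM40 did pass for OA with DESeq2 (-1.05, adjusted p = 0.0242), with scaling to total counts (-1.28, adjusted p = 0.0387), and with no filter on low counts (-1.08, adjusted p = 0.0203). It also passed in a fit of all 12 libraries (-1.15, adjusted p = 0.0363) and with the GC offset (-1.20, adjusted p = 0.00669). It did not pass without any 1 library (adjusted p = 0.0727 to 0.246). For TN the log2 fold change was -1.18 (SE 0.33, adjusted p = 0.0768), and TOMM40 passed with the replicate block (log2 fold change -1.22, SE 0.15, adjusted p = 0.00104).

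TOMM40L, a close relative of TOMM40, had 23.3, 36.2, and 27.5 CPM in DMSO and 12.2, 23.1, and 12.6 CPM in OA, and the highest OA library was close to the lowest DMSO library. With TN it had 18.6, 9.96, and 10.6 CPM, against 29.9, 19.4, and 20.2 CPM in DMSO, again without overlap. The log2 fold change was -0.87 (SE 0.34, adjusted p = 0.175) for OA and -0.83 (SE 0.33, adjusted p = 0.173) for TN, and TOMM40L passed for TN with the block (log2 fold change -0.85, SE 0.18, adjusted p = 0.0101). TOMM22, the central receptor of the complex, had 237, 378, and 257 CPM in DMSO against 142, 239.7, and 195 CPM in OA, and 324, 204, and 201 CPM in DMSO against 246, 136, and 149.5 CPM in TN. The groups overlapped in both experiments, and TOMM22 passed for TN with the block (log2 fold change -0.47, SE 0.14, adjusted p = 0.0362, against log2 fold change -0.45, SE 0.31, adjusted p = 0.426 without it). For OA its log2 fold change was -0.59 (SE 0.29, adjusted p = 0.26), and -0.32 without DMSO replicate 2. Without the block, the TN value was -0.20 without DMSO replicate 1, -0.30 without TN replicate 2, and -0.73 without TN replicate 1. TOMM20, which binds presequences, had log2 fold changes of -0.21 for OA and -0.08 for TN, and TOMM7 of 0.09 and 0.19. TOMM70, a receptor for carrier precursors, was at 131, 30.4, and 80.3 CPM in the OA libraries and 54.5, 164, and 159.9 CPM in the TN libraries, so that OA replicate 2 and TN replicate 1 stood below the others. TOMM5 was measured at 7 to 73 counts. TOMM6 was listed at 0 in all libraries, where a count of 0 allows up to 3 counts per library (counting error only), and its exons overlap those of another gene on the same strand (ENSG00000124593) that had 3 to 13 counts.

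TOMM34, a cytosolic co-chaperone of precursors, had log2 fold changes of -0.07 and -0.39. In the SAM complex, which inserts barrel proteins, none of the 3 genes passed in either experiment without the block. SAMM50, the insertase, had a log2 fold change of -0.58 (SE 0.27, adjusted p = 0.231) for OA and -0.42 (SE 0.27, adjusted p = 0.388) for TN. MTX1 and MTX2, its partners, had log2 fold changes of 0.37 (SE 0.42, adjusted p = 0.631) and 0.10 (SE 0.28, adjusted p = 0.85) for OA and 0.01 (SE 0.34, adjusted p = 0.985) and -0.21 (SE 0.25, adjusted p = 0.67) for TN. MTX1 had 26.3, 77.8, and 34.5 CPM in OA against 28.6, 46.4, and 32.4 CPM in DMSO, with OA replicate 2 standing above the rest. MTX1 had 44.2, 19.8, and 21.8 CPM in TN against 33.7, 24.9, and 26.4 CPM in DMSO, with TN replicate 1 standing above the rest. MTX2 had 38.8, 27.2, and 25.1 CPM in OA against 33.8, 25.2, and 26.0 CPM in DMSO, and 23.1, 40.9, and 32.7 CPM in TN against 37.4, 35.3, and 39.2 CPM in DMSO, and the groups overlapped in both.

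Of the 6 small chaperones, which escort hydrophobic precursors across the intermembrane space, 1 passed. TIMM8A (ENSG00000126953.8, chrX:101345661-101348742), whose loss causes a deafness and dystonia syndrome, was at 20.1, 23.7, and 20.2 CPM in DMSO and 10.8, 7.28, and 10.4 CPM in TN. Every TN library lay below every DMSO library, and the mean fell to 0.445 times that of DMSO (log2 fold change -1.17, SE 0.25, adjusted p = 0.0345). TIMM8A remained past the threshold with the block (log2 fold change -1.18, SE 0.22, adjusted p = 0.00686) and in 1 of the 6 fits that leave out a library, namely without TN replicate 1. Without any other library its adjusted p was 0.0689 to 0.143. For OA it was at 10.9, 14.4, and 13.7 CPM, against 19.1, 23.9, and 24.4 CPM in DMSO, without overlap, and did not pass (log2 fold change -0.79, SE 0.26, adjusted p = 0.121). TIMM13, its partner in the hexamer, had 33.3, 61.6, and 52.4 CPM in OA against 63.5, 108, and 67.8 CPM in DMSO (log2 fold change -0.70, SE 0.33, adjusted p = 0.24), with no overlap. For OA, TIMM13 was at -0.38 without DMSO replicate 2, and it passed with the GC offset (-0.87, adjusted p = 0.0192). In TN it had 56.6, 25.2, and 24.3 CPM against 77.0, 51.5, and 47.9 CPM, where the groups overlapped and TIMM13 passed with the block (log2 fold change -0.81, SE 0.17, adjusted p = 0.0114) but not without it (log2 fold change -0.74, SE 0.38, adjusted p = 0.291), where the log2 fold change was -1.21 without TN replicate 1. TIMM8B had 43.7, 108, and 57.2 CPM in OA against 63.9, 96.7, and 61.9 CPM in DMSO, and 74.7, 42.7, and 51.6 CPM in TN against 92.2, 58.0, and 54.3 CPM, and overlapped in both, with log2 fold changes of -0.09 (SE 0.37, adjusted p = 0.898) and -0.28 (SE 0.31, adjusted p = 0.641). TIMM9 and TIMM10, which form the other hexamer, and TIMM10B, which docks it on the TIM22 complex, had log2 fold changes of 0.12, 0.00, and 0.68 for OA and 0.10, -0.03, and 0.12 for TN, none of which passed. TIMM10B was at 22.9, 75.3, and 39.0 CPM in the OA libraries, with replicate 2 the highest, against 23.3, 36.5, and 25.8 CPM in DMSO. When a library was left out, its log2 fold change for OA ranged from 0.09 to 0.98. In the carrier translocase, TIMM22 (the channel) had log2 fold changes of -0.37 and -0.13, and TIMM29 (an accessory subunit) had 0.08 and -0.18.

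The import gene that passed for OA by edgeR belongs to the TIM23 translocase. TIMM21 (ENSG00000075336.12, chr18:74148523-74160531) links TIM23 to the outer membrane and to the respiratory chain. Its level was 29.1, 24.97, and 22.2 CPM with DMSO and 13.2, 10.3, and 8.61 CPM with OA. Every OA library lay below every DMSO library, and TIMM21 passed (log2 fold change -1.25, SE 0.28, adjusted p = 0.0471). TIMM21 passed in 1 of the 6 fits that leave out a library, without OA replicate 1 (adjusted p = 0.0363), and its adjusted p was 0.0575 to 0.208 without any other one. With an offset for GC content the log2 fold change was -0.94, and it still passed (adjusted p = 0.0406). In TN it was at 6.64, 12.4, and 16.1 CPM, against 24.1, 26.1, and 27.8 CPM in DMSO, with TN replicate 1 the lowest (log2 fold change -1.14, SE 0.33, adjusted p = 0.0831). There it passed with the block (log2 fold change -1.21, SE 0.23, adjusted p = 0.00751), and all 3 pairs were lower, with log2 differences of -1.84, -1.06, and -0.78.

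TIMM23, the channel, had 62.3, 98.0, and 67.6 CPM in OA against 92.8, 108, and 90.5 CPM in DMSO, with overlap (log2 fold change -0.35, SE 0.26, adjusted p = 0.439). In TN it had 79.2, 57.8, and 49.7 CPM against 99.0, 90.1, and 86.4 CPM, without overlap, and passed with the block (log2 fold change -0.59, SE 0.16, adjusted p = 0.0278, against log2 fold change -0.56, SE 0.23, adjusted p = 0.193 without it). TIMM23B, a near-identical copy, had 22 to 67 counts, and the effect of reads that match both genes was not tested. TIMM50, the receptor of TIM23, had 60.5, 148, and 75.2 CPM in OA against 103, 176, and 112 CPM in DMSO, with OA replicate 2 the highest (log2 fold change -0.46, SE 0.38, adjusted p = 0.498). The OA value was -0.15 without DMSO replicate 2, -0.24 without OA replicate 1, and -0.96 without OA replicate 2. In TN it had 85.5, 40.2, and 43.7 CPM against 132, 84.2, and 81.0 CPM, with TN replicate 1 the highest, and passed with the block (log2 fold change -0.86, SE 0.16, adjusted p = 0.00588) but not without it (log2 fold change -0.81, SE 0.36, adjusted p = 0.217). TIMM17A and TIMM17B are alternative subunits of the TIM23 translocase. TIMM17A had 124, 87.1, and 108 CPM in OA against 193, 153, and 154 CPM in DMSO, all lower, and did not pass (log2 fold change -0.64, SE 0.24, adjusted p = 0.158). With the GC offset TIMM17A was at -0.30 for OA (adjusted p = 0.337). In TN it had 120.1, 205, and 214 CPM against 160.1, 174, and 182 CPM, with 2 libraries above and 1 below every DMSO library (log2 fold change 0.06, SE 0.26, adjusted p = 0.912).

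TIMM17B (ENSG00000126768.12, chrX:48893447-48898143) had the highest log2 fold change of the tested import genes for OA. Its level was 8.18, 14.3, and 8.19 CPM in DMSO and 17.5, 53.1, and 20.4 CPM in OA, so that all OA libraries lay above and OA replicate 2 stood apart at 53.1 CPM. The difference did not pass (log2 fold change 1.56, SE 0.48, adjusted p = 0.102), and without OA replicate 2 the log2 fold change was 0.87. It did pass with DESeq2 (log2 fold change 1.56, adjusted p = 0.0196), with no filter on low counts (1.52, adjusted p = 0.00988), with the GC offset (1.37, adjusted p = 0.0274), and without OA replicate 1 (1.82, adjusted p = 0.0491). In TN it was at 29.3, 14.5, and 15.3 CPM, against 15.8, 7.17, and 7.57 CPM in DMSO, where the groups overlapped (log2 fold change 0.95, SE 0.42, adjusted p = 0.224). Within pairs it was higher by 0.89, 1.0, and 1.0 on the log2 scale, and it passed with the block (log2 fold change 0.97, SE 0.18, adjusted p = 0.00674). Without the block and without TN replicate 1, the log2 fold change was 0.58. An exon of TIMM17B overlaps one of PQBP1 on the opposite strand, which had a log2 fold change of 0.53 for OA (adjusted p = 0.458) and 0.29 for TN (adjusted p = 0.717). The strand setting of the counts was not given in the sources used here, and the part of this overlap in the TIMM17B counts was not tested.

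**Figure D3:**
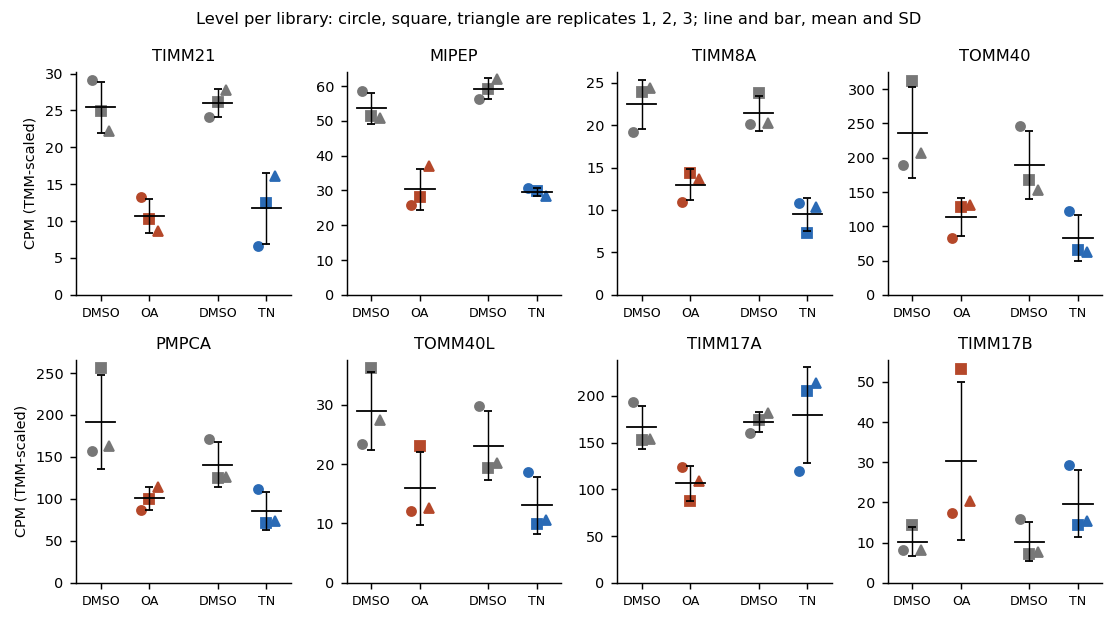
The level of 8 import genes is shown in each library in TMM-scaled CPM on an axis from 0, with the DMSO libraries in grey, OA in red, TN in blue, and a line and bar for mean and SD (n = 3). TIMM21, MIPEP, TIMM8A, TOMM40, PMPCA, and TOMM40L are lower in every treated library than in any DMSO library of the same experiment, whereas TIMM17A is so only for OA.

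Of the 6 genes of the import motor, none passed for OA and none passed for TN without the block. GRPEL1, a nucleotide exchange factor of the motor's Hsp70, had 95.1, 82.4, and 86.5 CPM in TN against 129, 113, and 122 CPM in DMSO, without overlap, and passed with the block (log2 fold change -0.47, SE 0.14, adjusted p = 0.0399, against log2 fold change -0.47, SE 0.18, adjusted p = 0.174 without it). In OA it had 96.8, 136, and 107 CPM against 124, 162, and 120.3 CPM, with overlap (log2 fold change -0.26, SE 0.25, adjusted p = 0.551). GRPEL2, its relative, had 82.6, 29.2, and 56.7 CPM in OA against 75.7, 41.6, and 59.7 CPM, and 40.9, 83.8, and 90.4 CPM in TN against 49.3, 75.7, and 77.4 CPM, and the groups overlapped in both, with log2 fold changes of -0.07 (SE 0.40, adjusted p = 0.932) and 0.09 (SE 0.34, adjusted p = 0.906). With the GC offset, GRPEL2 was at 0.30 for OA and 0.31 for TN. With the block added it passed for TN (0.31, adjusted p = 0.0417) but not for OA (0.30, adjusted p = 0.191). TIMM44, which tethers Hsp70 to the channel, had a log2 fold change of 0.29 (SE 0.26, adjusted p = 0.529) for OA and 0.45 (SE 0.25, adjusted p = 0.331) for TN. PAM16, a regulator of the motor, rests on 7 to 24 counts per library, and its TN libraries all lay above DMSO without passing (log2 fold change 1.41, SE 0.58, adjusted p = 0.193). DNAJC15 and DNAJC19, J proteins of the motor, had log2 fold changes between -0.18 and 0.11 in both experiments. With the GC offset, DNAJC15 was at 0.58 for OA and 0.13 for TN, and DNAJC19 at 0.31 and 0.44, and none of these passed.

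The disulfide relay oxidizes cysteine-rich proteins in the intermembrane space. CHCHD4, its import receptor, had 20.3, 17.3, and 17.8 CPM in TN against 31.7, 21.8, and 27.3 CPM in DMSO, without overlap, and passed with the block (log2 fold change -0.53, SE 0.17, adjusted p = 0.0495, against log2 fold change -0.54, SE 0.23, adjusted p = 0.195 without it). In OA it had 18.4, 30.7, and 20.7 CPM against 21.3, 36.2, and 24.8 CPM, with overlap (log2 fold change -0.24, SE 0.32, adjusted p = 0.681). GFER, the oxidase that regenerates it, had log2 fold changes of -0.08 and -0.11.

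The 3 processing peptidases had log2 fold changes below 0 in both experiments. MIPEP (ENSG00000027001.10, chr13:23730189-23889400) was at 56.2, 59.2, and 62.2 CPM in DMSO and 30.7, 29.8, and 28.3 CPM in TN, so that the mean was 59.2 ± 2.96 CPM with DMSO and 29.6 ± 1.17 CPM with TN (SD, n = 3). The groups did not overlap, and MIPEP passed (log2 fold change -1.0, SE 0.18, adjusted p = 0.0222). MIPEP passed with the block as well (log2 fold change -1.0, SE 0.15, adjusted p = 0.00261) and in 1 of the 6 fits that leave out a library, without TN replicate 1 (adjusted p = 0.00732), whereas without any other library its adjusted p was 0.0579 to 0.121. In OA it was at 25.9, 28.2, and 37.0 CPM, against 58.7, 51.3, and 50.7 CPM in DMSO, all lower, and it did not pass (log2 fold change -0.82, SE 0.25, adjusted p = 0.0993). PMPCA (ENSG00000165688.12, chr9:136410630-136427992), the substrate-binding subunit of the peptidase that removes presequences, had 87.2, 100.4, and 114 CPM in OA against 156, 256, and 163 CPM in DMSO (log2 fold change -0.93, SE 0.27, adjusted p = 0.09). In TN it had 111, 71.1, and 73.5 CPM against 172, 125, and 126 CPM and did not pass (log2 fold change -0.72, SE 0.26, adjusted p = 0.142), whereas with the block it passed (log2 fold change -0.74, SE 0.14, adjusted p = 0.00738). All treated libraries of PMPCA lay below those of DMSO in both experiments. PMPCB, the catalytic subunit, had 75.1, 75.6, and 76.2 CPM in OA against 93.0, 94.1, and 87.3 CPM in DMSO, and 84.7, 64.0, and 76.0 CPM in TN against 106, 84.5, and 95.3 CPM. The OA libraries of PMPCB all lay below DMSO, whereas its TN libraries overlapped DMSO. The log2 fold changes of PMPCB were -0.27 (SE 0.21, adjusted p = 0.459) and -0.35 (SE 0.21, adjusted p = 0.357) and did not pass, and with the GC offset they turned to 0.28 and 0.07. PMPCB shares exon sequence with PSMC2 on the same strand, which had a log2 fold change of -0.25 for OA (adjusted p = 0.612) and -0.79 for TN (adjusted p = 0.0426). It also overlaps DNAJC2 on the opposite strand (log2 fold change -1.015, adjusted p = 0.222 for OA and -1.12, adjusted p = 0.22 for TN). The part of these overlaps in the PMPCB counts was not tested.

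Ratios of related genes within a library do not depend on the scaling of libraries, although they can vary with GC content where the genes differ in it, and 6 pairs were compared in each experiment by a two-sided exact permutation test. With 3 against 3 libraries the smallest p that this test can give is 0.1, so no pair could pass. The ratio of TIMM17A to TIMM17B was 23.5, 10.7, and 18.7 with DMSO and 7.10, 1.64, and 5.30 with OA. All 3 OA libraries lay below, and the geometric mean of the ratios was 4.24-fold lower (exact p = 0.1, adjusted over 12 tests p = 0.24). The difference of the mean log2 ratios was -2.08 for OA, and -1.45 without OA replicate 2. For TN it was -0.95, and -0.36 without TN replicate 1. In the TN experiment this ratio was 10.1, 24.2, and 23.9 with DMSO and 4.10, 14.1, and 14.0 with TN, with overlap (exact p = 0.3). Within each TN pair, however, it was lower. The ratio of PMPCA to PMPCB was 1.68, 2.72, and 1.87 with DMSO and 1.16, 1.33, and 1.49 with OA (exact p = 0.1). It was 1.62, 1.48, and 1.32 with DMSO and 1.31, 1.11, and 0.967 with TN (exact p = 0.1), so the treated libraries lay below in both experiments. The ratio of TOMM40 to TOMM40L was 8.25, 8.66, and 7.56 with DMSO and 6.54, 6.53, and 5.96 with TN (exact p = 0.1), but overlapped for OA (exact p = 0.6). The ratio of TIMM8A to TIMM8B was 0.219, 0.410, and 0.373 with DMSO and 0.146, 0.172, and 0.202 with TN (exact p = 0.1), and overlapped for OA (exact p = 0.2). GRPEL1 to GRPEL2 and MTX1 to MTX2 overlapped in both experiments. Within each TN pair, GRPEL1 to GRPEL2 was lower, at 2.33, 0.984, and 0.957 with TN against 2.62, 1.496, and 1.58 with DMSO. The GC content was 40.9% for TIMM17A and 56.5% for TIMM17B, and 55% for PMPCA and 37.4% for PMPCB. With the GC offset, the log2 fold change of TIMM17A minus that of TIMM17B was -1.67 in the OA experiment (-2.21 without the offset) and -0.61 in the TN experiment (-0.88 without it). That of PMPCA minus PMPCB was -1.32 with OA (-0.66 without it) and -0.87 with TN (-0.38 without it). That of MTX1 minus MTX2 turned in both experiments, to -0.057 with OA (0.27 without it) and -0.0063 with TN (0.22 without it).

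**Figure D4:**
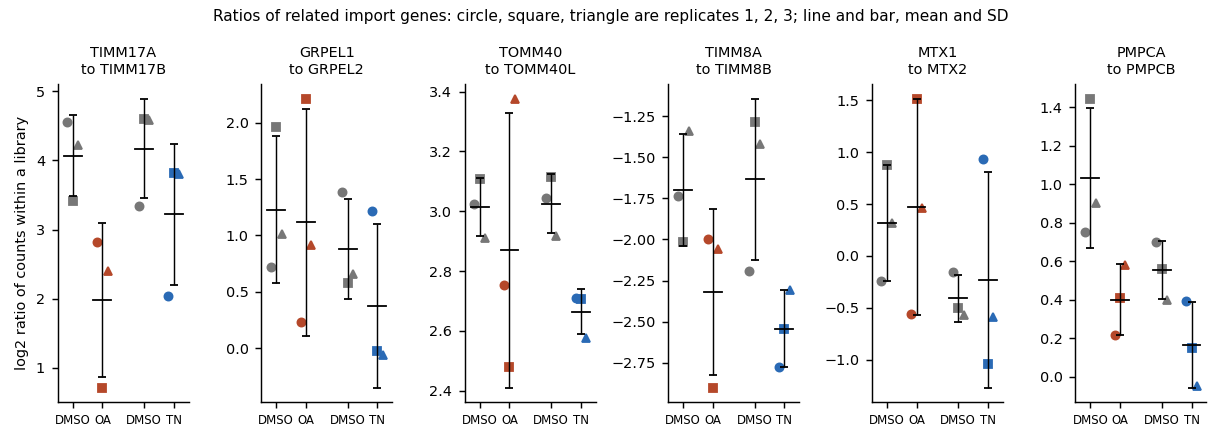
The log2 ratio of the counts of 2 related import genes is shown for each library, with a panel for each of the 6 pairs, DMSO in grey, OA in red, TN in blue, and a line and bar for mean and SD (n = 3). The TIMM17A to TIMM17B ratio is below DMSO in all OA libraries, and the PMPCA to PMPCB ratio is below DMSO in all OA and all TN libraries.

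The stressors were then compared with each other, as the OA change minus the TN change over all 12 libraries. No import gene passed by edgeR's quasi-likelihood test, and none of the 35 had an unadjusted p under 0.05. The background was 0% of 15429 genes, with 348 genes at an unadjusted p under 0.05, and DESeq2 called 2 genes and no import gene. The lowest p was that of TIMM17A, whose change was lower with OA by a difference of -0.78 on the log2 scale (SE 0.38, unadjusted p = 0.0614). The differences were 0.07 (SE 0.43) for TOMM40, -0.19 (SE 0.46) for TIMM21, 0.11 (SE 0.27) for MIPEP, 0.30 (SE 0.31) for TIMM8A, -0.27 (SE 0.36) for PMPCA, and 0.54 (SE 0.65) for TIMM17B. With such errors the test does not show that the stressors act alike on these genes.

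A further 16 genes of mitochondrial import and membrane insertion were described as neighbours of the machinery, of which 14 were tested. None passed for OA or for TN in either direction, against 4.48% and 6.99% of all genes. At these shares, 0 of 14 does not set these genes apart. With the block 1 of the 14 fell for TN, against 15.3% of all genes. It was MTCH2, an outer membrane insertase (log2 fold change -0.43, adjusted p = 0.0474). HSPA9, the Hsp70 of the motor, had a log2 fold change of 0.26 (SE 0.22, adjusted p = 0.504) for OA and 0.33 (SE 0.17, adjusted p = 0.283) for TN. With the GC offset HSPA9 was at 0.498 (adjusted p = 0.116) and 0.52 (adjusted p = 0.093). With the block added it passed, higher, for OA (0.50, adjusted p = 0.0407) and TN (0.52, adjusted p = 0.000966). HSPD1, the matrix chaperonin that folds imported proteins and was read as a stress gene, had a log2 fold change of -1.46 for OA (adjusted p = 0.107, but 0.0288 with DESeq2 and 0.0225 with the GC offset) and of -1.29 for TN (adjusted p = 0.0303), and all treated libraries lay below DMSO in both.

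Per kilobase of transcript, the DMSO levels of the import genes in the OA experiment spanned a wide range. TOMM7 was the highest at 454 ± 106 CPM per kb (SD, n = 3), followed by TOMM22 at 143 ± 37.5 and TOMM40 at 134 ± 37.4. The SD is the spread between libraries, and the difference of TOMM22 and TOMM40 within a library was not tested. TIMM17A, at 101 ± 14.0, was above TIMM17B, at 12.5 ± 4.32, and PMPCA, at 91.9 ± 26.7, was above PMPCB, at 23.4 ± 0.944. TIMM21 (8.25 ± 1.12), DNAJC15 (3.33 ± 0.460), and PAM16 (1.77 ± 0.484) were among the lowest. PAM16 shares exon sequence with CORO7-PAM16 on the same strand, as PMPCB does with PSMC2. The counted levels of PAM16 and PMPCB may therefore not be their full levels, which was not tested.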

How the data were processed

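Total RNA of HCT116 cells was sequenced by the authors with a stranded kit. Reads were mapped to hg38 with STAR and counted against Gencode v32, and the authors deposited raw counts, not normalized, in 1 table for each stressor. The strand column kept is not given in the sources used here. Their DESeq2 result tables, which hold fold changes and p-values, were not used. Of the columns with per-sample values, 0 went unused.

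The counts were filtered with filterByExpr, TMM-scaled, and tested with edgeR 4.0.16 (R 4.3.3, quasi-likelihood, two-sided, Benjamini-Hochberg over all tested genes), for each stressor against its own DMSO libraries. The contrast of the stressors used all 12 libraries. Ratios of counts had 0.5 added and were tested by exact permutation in scipy 1.17.1. CPM are scaled by TMM, and gene positions and GC content come from Gencode v44 on hg38. The GC content is that of the longest annotated transcript of a gene, which need not be the one expressed.

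For TN, the correlations of deviations between same-numbered libraries were 0.64, 0.41, and 0.43, so the shared numbers of the labels were taken to pair them. Libraries 2 and 3 deviated together across numbers as well (0.38 and 0.44, the latter, DMSO 3 with TN 2, above the 0.43 of DMSO 3 with TN 3), so the correlations do not tell numbers 2 and 3 apart. Full statistics were given for genes past 0.05 in either comparison (with the block for TN), the 5 lowest p-values of each, and 6 pairs of relatives. All 36 genes could be named. The members, lists, and tests were chosen with earlier results of these data known. 1 cell type marker of the lists is not reported here. The fit was tested on simulated data. The alternatives were other size factors, total counts, DESeq2 1.42.0, no filter, a minimum of 10 counts in each library, the replicate block, all 12 libraries together, GC offsets, and leaving out each library.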

Additional observations from a re-analysis of the deposited data

How the results depend on the processing

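The number of import genes past the threshold depended on the processing. For OA, 1 of 35 passed by edgeR (2.86%, against 4.48% of all genes) and 5 with DESeq2 (14.3%, against 13.1%). With GC offsets 7 passed (20%, against 16.1%), and with the replicate block added 10 (28.6%, against 25.7%). With no filter 4 passed, against 1572 of 28468 genes, and in a fit of all 12 libraries 5, against 1681 of 15429 genes. When a library was left out, 0 to 2 passed, against 3 to 1179 of the 14912 to 15573 genes tested. For TN, 2 of 35 passed (5.71%, against 6.99% of all genes), 4 with DESeq2 (11.4%, against 15.0%), and 13 with the replicate block (37.1%, against 27.1%). With GC offsets 8 passed (22.9%, against 21.7%), and with the block added 15 (42.9%, against 37.2%). With scaling to total counts 6 passed, against 1404 of 14432 genes, and with no filter 4, against 1648 of 28184 genes. When a library was left out, 0 to 9 passed (9 without TN replicate 1), against 151 to 2361 of the 14888 to 14972 genes tested. With the replicate block, 12 passed for OA (34.3%, against 26.7% of all genes), 11 lower (31.4%, against 15%) and 1 higher (2.86%, against 11.7%). The correlations of the 3 same-numbered OA pairs were 0.62, 0.54, and 0.09, and DMSO replicate 3 correlated better with OA replicate 1 (0.15). Between numbers 1 and 2 the OA correlations were -0.52 and -0.61. The correlations do not settle in either experiment whether every number pairs its libraries. Over all genes, calls went from 658 to 1927 with DESeq2, 1572 with no filter, 1681 in the fit of all 12 libraries, 2361 with GC offsets, 3914 with the block, and 3768 with both for OA, and to 3 to 1179 without a library. For TN they went from 1009 to 2162 with DESeq2, 1648 with no filter, 3137 with GC offsets, 3915 with the block, 5367 with both, and 151 to 2361 without a library. Scaling to total counts moved the median of all genes to -0.23 for OA and -0.18 for TN and that of the import genes to -0.47 and -0.37, and it turned the split of all calls from 405 higher and 253 lower to 352 and 396 for OA, and from 527 and 482 to 529 and 875 for TN. It also ended the OA call of TIMM21, although the log2 fold change was -1.43. Of the 35 import genes, 21 to 30 were lower for OA and 21 to 31 for TN under the alternatives run. Of the 14 tested among the further 16 import genes, 0 passed for OA (4.48% of all genes) and 0 for TN (6.99%). For OA, 1 passed with total counts, against 748 of all 14681 genes, and 2 with GC offsets and the block, against 25.7%. For TN, 1 passed with the block, against 27.1% of all genes, and 3 with GC offsets and the block, against 37.2%.

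Values that turned in direction are given for the 19 genes with full statistics, and for all import genes with GC offsets. With scaling to total counts, MTX2 was at -0.072 for OA, and MTX1, TIMM17A, and GRPEL2 were at -0.19, -0.049, and -0.021 for TN. With GC offsets, GRPEL2 was at 0.30 for OA and PMPCB at 0.28, and with the block added at 0.30 and 0.23. PMPCB was at 0.068 for TN with GC offsets, and at -0.051 with the block added. GC offsets also turned TOMM20 (to 0.059 for OA and 0.15 for TN), DNAJC19 for OA (to 0.31), DNAJC15 for TN (to 0.13), and TIMM29 for OA (to -0.073). MTX1 for TN was at -0.059 with no filter, -0.020 with at least 10 counts in every library, -0.064 with the replicate block, -0.021 in the fit of all 12 libraries, -0.11 with GC offsets, and -0.12 with GC offsets and the block. When a library was left out, the log2 ratios ranged from -0.66 to 0.33 for GRPEL1 to GRPEL2 and -0.40 to 0.051 for TOMM40 to TOMM40L with OA, and for MTX1 to MTX2 from -0.37 to 0.67 with OA and -0.41 to 0.58 with TN. The log2 fold changes for OA then ranged from -0.25 to 0.63 for MTX1, -0.13 to 0.29 for MTX2, -0.57 to 0.18 for TIMM8B, -0.47 to 0.26 for GRPEL2, and -0.50 to 0.053 for CHCHD4. For TN they ranged from -0.40 to 0.22 for MTX1, -0.42 to 0.027 for MTX2, -0.093 to 0.33 for TIMM17A, and -0.11 to 0.42 for GRPEL2. The cause was not tested. The block and the other alternatives left the difference between the stressors at 0 import genes called. Counts were lowest for PAM16 (7 to 24 counts) and TOMM5 (7 to 73 counts), apart from TOMM6. These genes share exon sequence with other genes on the same strand, and whether depth or overlap limits them was not tested.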
